A study of Mus musculus with 16 samples.

Results

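The endothelial cells that line the liver sinusoids were followed through 10 marker genes, Kdr, Flt4, Tek, Clec4g, Lyve1, Stab1, Stab2, Oit3, Pecam1 and Cdh5, out of 19938 genes with a single platform symbol on the array. Each gene was represented by its probe set of highest mean over the 16 arrays, and all 10 were among the 15908 genes that passed a filter on low values. Whole mouse liver was measured on Affymetrix whole-transcript arrays, with 4 arrays in each of 4 groups of male mice. The groups were livers of S534A mice given 1 mg/kg lipopolysaccharide (LPS), untreated S534A livers, livers of wild-type (WT) C57Bl6/J mice given the same dose, and untreated WT livers. LPS is a bacterial endotoxin sensed through TLR4. S534A mice carry a knock-in in which a serine of p65, the NF-kB subunit encoded by Rela, is replaced by alanine. The allele was made in PTL1 embryonic stem cells, its selection cassette was removed by crossing to mice that express a flippase, and the line was backcrossed to C57Bl6/J and bred to homozygosity, so the substitution is present in all cells of the animal and not in endothelium alone. Age, the time between LPS and collection, and a group given vehicle are not described in the sources used here. The series text names the LPS dose also for the untreated S534A group, and the sample titles, which call it untreated, were followed.

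Sinusoidal endothelium differs from that of most vessels. Its cells are perforated by open fenestrae, lack a continuous basement membrane, and clear waste macromolecules from blood through scavenger receptors of high capacity. Their upkeep depends on VEGF, which signals through the tyrosine kinase receptor encoded by Kdr, and they are in direct contact with endotoxin that reaches the liver by the portal vein. Of the genes followed here, Kdr, Flt4 and Tek encode receptor tyrosine kinases, Stab1, Stab2, Lyve1 and Clec4g encode scavenger, hyaluronan-binding or lectin receptors, Pecam1 and Cdh5 encode adhesion molecules of endothelial junctions, and Oit3 encodes a secreted protein of the zona pellucida domain family.

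Several of these genes are also transcribed outside sinusoidal endothelium. Lyve1 and Flt4 are classical lymphatic endothelial genes, Stab1 and Lyve1 are found in some tissue macrophages, and Pecam1 is carried by leukocytes and platelets. In all 16 arrays each member exceeded the 30th percentile of probe sets, and all but Kdr also exceeded the array median every time. The lowest position of Kdr was at percentile 43.4. These are ranks among probe sets and not detection calls, and they do not show which cells hold the transcripts. In a bulk tissue a lower value can reflect fewer cells of a type or less RNA per cell, and these cannot be told apart. Whether the arrays of a group stand for different animals is not stated, and p-values therefore reflect the scatter among these arrays, part of which may be technical.

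Promoter windows were printed for the 3 members with the largest falls after LPS, since these carry the main change described below. RefSeq windows of GRCm38.p6, 250 bases before to 50 after the start site, were matched for 6 of the 10 members (Kdr, Flt4, Tek, Clec4g, Stab1 and Stab2). Lyve1, Oit3, Pecam1 and Cdh5 had no entry. Capitals mark matches, on either strand, to the NF-kB consensus, an ETS core, a GC box, a GATA motif and a TATA box, and sequences run 5′ to 3′ along the gene. The Kdr window lies at chr5:75978406-75978705 on the minus strand, the Tek window at chr4:94739039-94739338 on the plus strand and the Clec4g window at chr8:3720602-3720901 on the minus strand.
Kdr: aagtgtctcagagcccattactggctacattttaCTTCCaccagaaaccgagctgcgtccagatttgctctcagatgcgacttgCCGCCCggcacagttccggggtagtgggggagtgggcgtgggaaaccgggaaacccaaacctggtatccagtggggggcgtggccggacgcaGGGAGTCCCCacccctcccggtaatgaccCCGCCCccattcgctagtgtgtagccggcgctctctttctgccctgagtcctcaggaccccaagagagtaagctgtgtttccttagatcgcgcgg
Tek: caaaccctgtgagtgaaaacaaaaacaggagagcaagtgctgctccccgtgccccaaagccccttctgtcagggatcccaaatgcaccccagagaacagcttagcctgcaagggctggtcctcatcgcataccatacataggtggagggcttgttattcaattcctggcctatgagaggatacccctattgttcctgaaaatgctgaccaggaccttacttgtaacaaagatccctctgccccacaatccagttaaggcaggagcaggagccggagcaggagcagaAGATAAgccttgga
Clec4g: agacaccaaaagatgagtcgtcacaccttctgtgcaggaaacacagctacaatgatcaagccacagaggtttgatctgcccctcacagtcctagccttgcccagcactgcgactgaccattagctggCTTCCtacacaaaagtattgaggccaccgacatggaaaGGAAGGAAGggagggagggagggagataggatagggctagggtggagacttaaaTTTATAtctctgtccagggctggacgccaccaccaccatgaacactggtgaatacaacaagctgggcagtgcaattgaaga
The Kdr window held 1 NF-kB consensus match, beginning 74 bases before the start site, together with 1 ETS core and 2 GC boxes (letters GGGCGG, held by 35.7% of all windows). None of the other 5 windows held an NF-kB consensus match, and 4.51% of all 32851 windows in the table held one. The Tek window held a GATA motif (letters AGATAA) at position 37 of the transcript, a motif present in 11.2% of all windows. In the Clec4g window there were 3 ETS cores, of which a pair overlap. A TATA box match (letters TATAAA) lay on the strand opposite to the gene, printed as TTTATA at position -31. Such a match on either strand was found in 13.6% of all windows. GC content was 70.3% for Flt4 and 60.7% for Kdr, against 52.0% for Tek and 51.0% for Clec4g, and the median over all windows was 52.7%. ETS cores, searched as GGAAG, were found in 5 of the 6 windows and in 71.4% of all windows. A match is a description of letters and not a binding site.

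Whole-series values that touch the results were as follows. Array medians lay between 6.25 and 6.42 on the log2 scale, no 2 arrays held identical values, and Rela rose by 1.41 ± 0.08 after LPS in S534A livers and by 1.22 ± 0.08 in WT livers (SE). A point substitution leaves the transcript in place, so Rela does not check the genotype labels. Untreated arrays differed in circadian clock genes: a clock score (the log2 level of Arntl subtracted from the mean of Tef, Dbp and the 3 Per genes) ran between -2.55 and 3.41 in untreated S534A arrays and between -1.77 and 3.47 in untreated WT arrays. Without the 3 untreated arrays of negative score, all 10 members kept their calls after LPS in both genotypes.

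After LPS 8 of the 10 genes fell and 2 rose, in S534A livers and in WT livers alike (limma, Benjamini-Hochberg adjusted p under 0.05 over 15908 genes). Across all genes tested 31.2% fell and 14.2% rose in S534A livers, and 29.9% fell and 14.9% rose in WT livers. The falls of Kdr, Tek, Clec4g, Oit3, Flt4 and Stab2 were at least 2-fold in both genotypes, a size reached by 4.26% of all genes in S534A and by 3.68% in WT, while the rise of Lyve1 was at least 2-fold, as were those of 4.27% and 4.48% of all genes. The median change of the 10 genes was -1.42 in S534A and -1.28 in WT, against -0.03 and -0.05 over all genes. LPS-treated and untreated arrays did not overlap for any of the 10 genes in either genotype, which was the case for 48.1% of all genes in S534A and 38.3% in WT. Groups that did not overlap with LPS the lower, as for 8 members, made up 31.7% of all genes in S534A and 25.6% in WT. Changes below are log2 differences of group means (n = 4 each), given with the SE from limma.

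**Figure D1:**
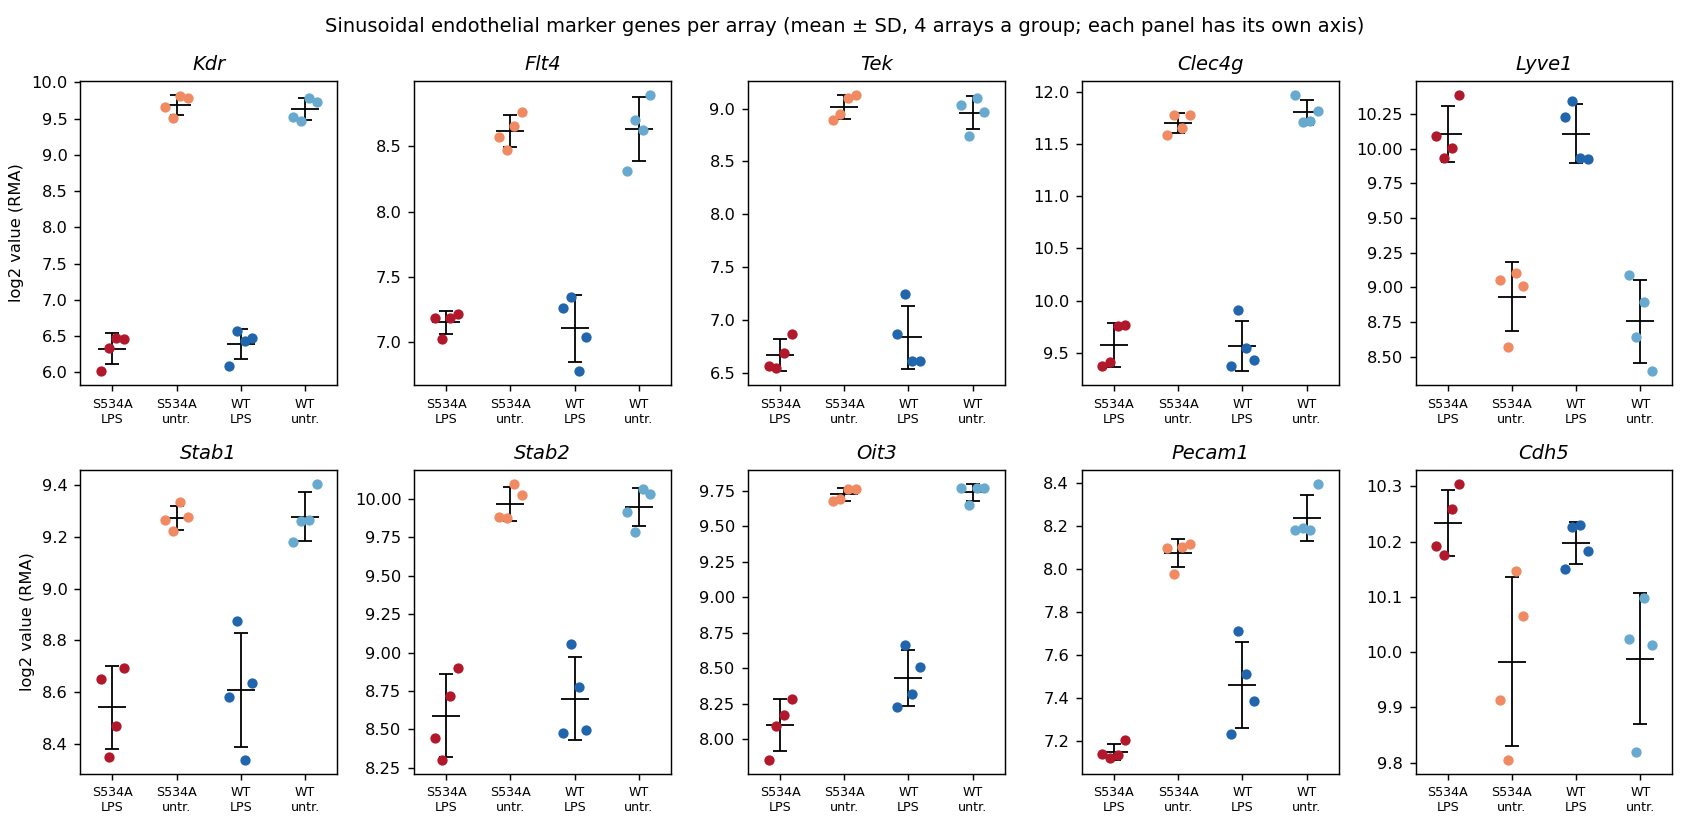
Log2 values (vertical axis, a scale of its own in each panel) of the 10 genes in each array, as points by group, with the group mean and SD (n = 4) as black bars. Kdr, Flt4, Tek, Clec4g, Stab1, Stab2, Oit3 and Pecam1 sit lower in the LPS-treated groups, Lyve1 and Cdh5 sit higher, and no LPS-treated array overlaps the untreated arrays of its genotype.

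Among the receptor kinases Kdr, the main signalling receptor for VEGF-A, showed the largest fall. Its log2 level was 6.01, 6.33, 6.48 and 6.46 in LPS-treated S534A arrays, against 9.66, 9.51, 9.82 and 9.78 in untreated S534A arrays. In WT livers it was 6.09, 6.56, 6.43 and 6.47 after LPS, against 9.53, 9.47, 9.78 and 9.74 without treatment. The lowest untreated array lay 3.03 above the highest LPS-treated array in S534A and 2.91 above it in WT. Kdr changed by -3.37 ± 0.12 in S534A (10.3-fold lower, limma adjusted p = 6.76e-13) and by -3.24 ± 0.12 in WT (9.46-fold, adjusted p = 1.16e-12), which left 9.67% and 10.6% of the untreated level. In each genotype this was the fifth lowest change of all genes tested, and 3 of the 16 arrays, all LPS-treated, placed Kdr below their array median.

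Tek, the receptor for angiopoietins that keeps vessels quiescent, fell next most in S534A livers. It measured 6.56, 6.54, 6.69 and 6.87 in LPS-treated S534A arrays, against 8.89, 8.94, 9.10 and 9.12 in untreated ones. WT arrays gave 6.87, 7.24, 6.61 and 6.61 after LPS, against 9.03, 8.74, 9.10 and 8.97 without it. LPS-treated WT array 2 stood above the other LPS-treated arrays, and was still far below the lowest untreated WT array. Tek changed by -2.35 ± 0.13 in S534A (5.10-fold lower, limma adjusted p = 1.83e-10) and by -2.13 ± 0.13 in WT (4.37-fold, adjusted p = 6.49e-10).

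Flt4 encodes the receptor for VEGF-C and VEGF-D, known best from lymphatic vessels and also present on sinusoidal endothelium. Values were 7.18, 7.02, 7.19 and 7.22 in LPS-treated S534A arrays, against 8.57, 8.47, 8.66 and 8.76 in untreated S534A arrays. The WT values were 7.26, 7.35, 6.78 and 7.04 after LPS, against 8.31, 8.70, 8.62 and 8.89 in untreated arrays. Both WT groups spread more widely than the S534A groups, by 0.57 and 0.58 against 0.19 and 0.29 between their extremes. Flt4 changed by -1.46 ± 0.13 in S534A (2.76-fold lower, limma adjusted p = 6.37e-08) and by -1.52 ± 0.13 in WT (2.88-fold, adjusted p = 3.93e-08). The 95% intervals of the 3 receptor changes did not meet one another within a genotype.

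The receptors that clear ligands from blood moved in both directions. Clec4g, a C-type lectin of liver and lymph node sinusoids, was at 9.37, 9.41, 9.75 and 9.76 in LPS-treated S534A arrays, against 11.59, 11.78, 11.65 and 11.78 in untreated ones. In WT it was at 9.37, 9.91, 9.54 and 9.43 after LPS, against 11.97, 11.71, 11.72 and 11.81 in untreated arrays. All LPS-treated arrays lay far below the untreated ones, and LPS-treated WT array 2 was the highest of them. Clec4g changed by -2.13 ± 0.12 in S534A (4.37-fold lower, limma adjusted p = 2.99e-10) and by -2.24 ± 0.12 in WT (4.71-fold, adjusted p = 1.49e-10). Clec4g was the only member with a second probe set, which was not used. It lay above the 30th percentile in 1 array and moved by -0.08 ± 0.07 in S534A and -0.13 ± 0.07 in WT (limma adjusted p = 0.395 and 0.175, over 21789 probe sets without a filter).

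Stab2 encodes the main endocytic receptor for hyaluronan in the sinusoids. Its level was 8.45, 8.30, 8.72 and 8.90 in LPS-treated S534A arrays, against 9.88, 9.88, 10.10 and 10.02 in untreated S534A arrays. LPS-treated WT arrays gave 8.48, 9.05, 8.77 and 8.50, against 9.91, 9.79, 10.07 and 10.03 in untreated WT arrays. The LPS-treated arrays were the more variable in both genotypes, with an SD of 0.27 in each, against 0.11 in untreated S534A and 0.13 in untreated WT. Stab2 changed by -1.38 ± 0.14 in S534A (2.60-fold lower, limma adjusted p = 3.03e-07) and by -1.25 ± 0.14 in WT (2.38-fold, adjusted p = 1.01e-06).

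Its homologue Stab1, a scavenger receptor shared with macrophages, showed the smallest fall. In LPS-treated S534A arrays it was at 8.65, 8.35, 8.47 and 8.69, against 9.26, 9.22, 9.33 and 9.28 in untreated S534A arrays. In LPS-treated WT arrays it was at 8.58, 8.88, 8.34 and 8.63, against 9.18, 9.26, 9.26 and 9.41 in untreated WT arrays. Stab1 changed by -0.73 ± 0.10 in S534A (1.66-fold lower, limma adjusted p = 1.40e-05) and by -0.67 ± 0.10 in WT (1.59-fold, adjusted p = 3.64e-05). The intervals of the Stab1 and Stab2 changes did not meet in either genotype.

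Lyve1, a hyaluronan receptor of lymphatic and sinusoidal endothelium, moved in the opposite direction. LPS-treated S534A arrays read 10.09, 9.93, 10.00 and 10.39, against 9.05, 8.57, 9.10 and 9.01 in untreated S534A arrays. LPS-treated WT arrays read 10.22, 10.35, 9.93 and 9.93, against 9.09, 8.64, 8.89 and 8.40 in untreated WT arrays. The lowest LPS-treated array stood 0.83 above the highest untreated array in S534A and 0.84 above it in WT. Lyve1 rose by 1.17 ± 0.16 in S534A (2.25-fold, limma adjusted p = 9.22e-06) and by 1.35 ± 0.16 in WT (2.55-fold, adjusted p = 1.88e-06). Its pooled SD within groups, 0.24, was the largest of the 10 genes, and 90.0% of all genes had a smaller one.

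Oit3 transcripts are concentrated in liver, where sinusoidal endothelium is the main source. Its level was 7.85, 8.10, 8.17 and 8.29 in LPS-treated S534A arrays, against 9.67, 9.69, 9.76 and 9.76 in untreated S534A arrays. WT arrays gave 8.23, 8.67, 8.32 and 8.51 after LPS, against 9.77, 9.65, 9.77 and 9.77 without treatment. Untreated arrays were tightly grouped, within 0.09 in S534A and 0.12 in WT, while LPS-treated arrays spread over 0.43 and 0.44. Oit3 changed by -1.62 ± 0.10 in S534A (3.08-fold lower, limma adjusted p = 6.99e-10) and by -1.31 ± 0.10 in WT (2.48-fold, adjusted p = 1.07e-08).

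The junction genes Pecam1 and Cdh5 parted. Pecam1, which encodes CD31, was at 7.14, 7.12, 7.14 and 7.20 in LPS-treated S534A arrays, against 8.10, 7.98, 8.10 and 8.11 in untreated S534A arrays. In WT livers it was at 7.23, 7.71, 7.51 and 7.39 after LPS, against 8.18, 8.19, 8.18 and 8.40 without treatment. Pecam1 changed by -0.92 ± 0.09 in S534A (1.90-fold lower, limma adjusted p = 1.95e-07) and by -0.78 ± 0.09 in WT (1.71-fold, adjusted p = 1.48e-06).

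Cdh5 encodes VE-cadherin, the adhesion molecule of endothelial adherens junctions. It was at 10.19, 10.18, 10.26 and 10.30 in LPS-treated S534A arrays, against 9.91, 9.81, 10.15 and 10.07 in untreated S534A arrays. WT arrays read 10.15, 10.23, 10.23 and 10.18 after LPS, against 10.02, 9.82, 10.10 and 10.01 without treatment. The groups were separated by gaps of only 0.03 in S534A and 0.05 in WT. The estimated rise was 0.25 ± 0.08 in S534A (1.19-fold, limma adjusted p = 0.0152) and 0.21 ± 0.08 in WT (1.16-fold, adjusted p = 0.0397). With each array centred on its median, which moved the median change of all genes to -0.13 in S534A and -0.16 in WT, Cdh5 stood at 0.15 (adjusted p = 0.104) and 0.11 (adjusted p = 0.255) and passed in neither genotype. The S534A call was also lost without untreated S534A array 2 (0.19, adjusted p = 0.0639). The WT call was lost when any of the 4 LPS-treated WT arrays, or array 1, 2 or 4 of the untreated WT group, was left out, with a change between 0.15 and 0.22 (limma adjusted p from 0.0515 to 0.142).

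**Figure D2:**
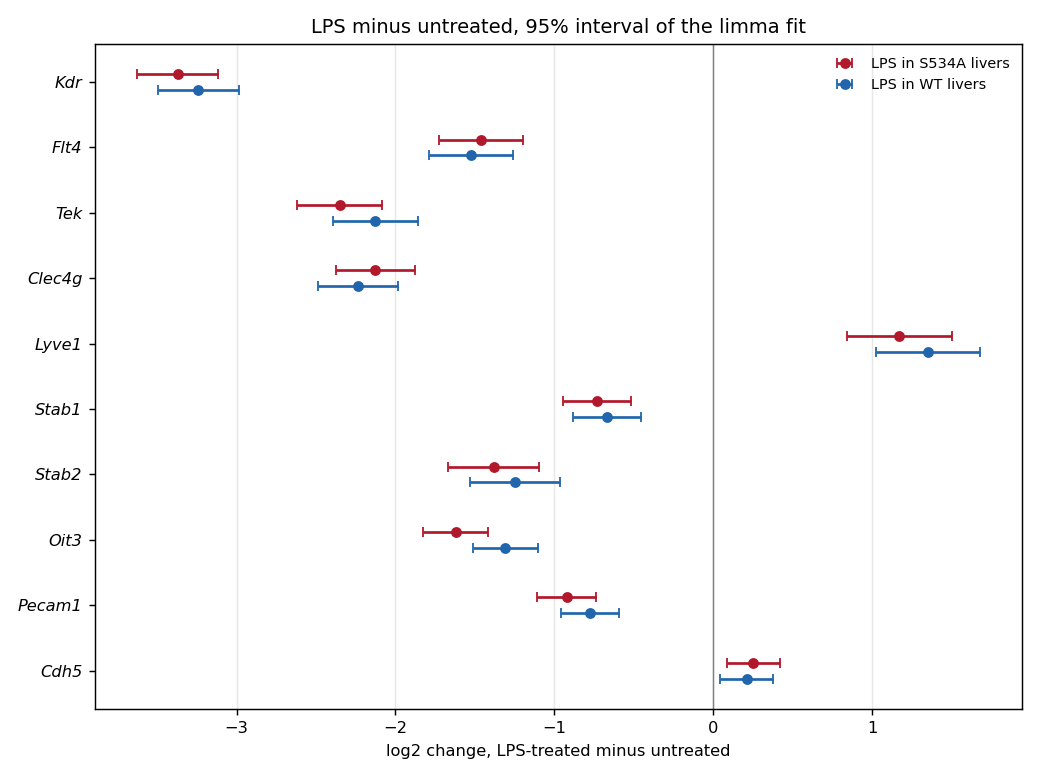
Log2 change after LPS (horizontal axis, LPS-treated minus untreated) of the 10 genes with 95% intervals of the limma fit, S534A livers in red above WT livers in blue. Kdr lies lowest at -3.37 and -3.24, Lyve1 highest at 1.17 and 1.35, Cdh5 lies closest to 0 at 0.25 and 0.21, and the intervals of the genotypes overlap for every gene.

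S534A and WT livers did not differ in any of the 10 genes at the adjusted threshold. After LPS 0 of the 10 passed by limma, where 0% of all genes did, and 2 had an unadjusted p under 0.05, as did 477 of all 15908 genes. In untreated livers 0 of 10 passed, against 0.0126% of all genes (0.00629% in each direction), and 0 of 10 had an unadjusted p under 0.05, against 1412 of all genes. For the interaction, the LPS change in S534A minus that in WT, 0 of 10 passed and 0% of all genes did, with 1 member and 766 of all genes under 0.05 before adjustment. The untreated and LPS-treated groups used here are the same arrays as in the comparisons above.

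Differences after LPS were largest for Oit3 and Pecam1. Oit3 was lower in LPS-treated S534A than in LPS-treated WT livers by -0.33 ± 0.10, with a 95% interval between -0.53 and -0.12 (limma unadjusted p = 0.00368, adjusted p = 1.00). Its LPS changes differed by -0.31 ± 0.14 (unadjusted p = 0.0366, limma adjusted p = 0.951). The highest LPS-treated S534A array, 8.29, lay above the lowest LPS-treated WT array, 8.23, so the groups overlapped. In untreated livers Oit3 differed by -0.02 ± 0.10.

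Pecam1 was the one member whose genotypes did not overlap, and this held both with LPS and without it. The S534A minus WT difference was -0.31 ± 0.09 after LPS (unadjusted p = 0.00251, limma adjusted p = 1.00) and -0.16 ± 0.09 in untreated livers (unadjusted p = 0.0779, limma adjusted p = 0.620). Gaps between the groups were 0.03 and 0.06. Genotypes did not overlap for 2.03% of all genes after LPS and for 5.69% in untreated livers. The LPS changes of Pecam1 differed by -0.15 ± 0.12.

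For the other 8 genes the S534A minus WT difference after LPS lay between -0.17 (Tek) and 0.05 (Flt4), and that in untreated livers between -0.10 (Clec4g) and 0.18 (Lyve1). The interval for Kdr ran from -0.32 to 0.19 after LPS and that of its interaction from -0.49 to 0.23. Lyve1 had the widest interaction interval, -0.65 to 0.28. These intervals do not show that the genotypes act alike.

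**Figure D3:**
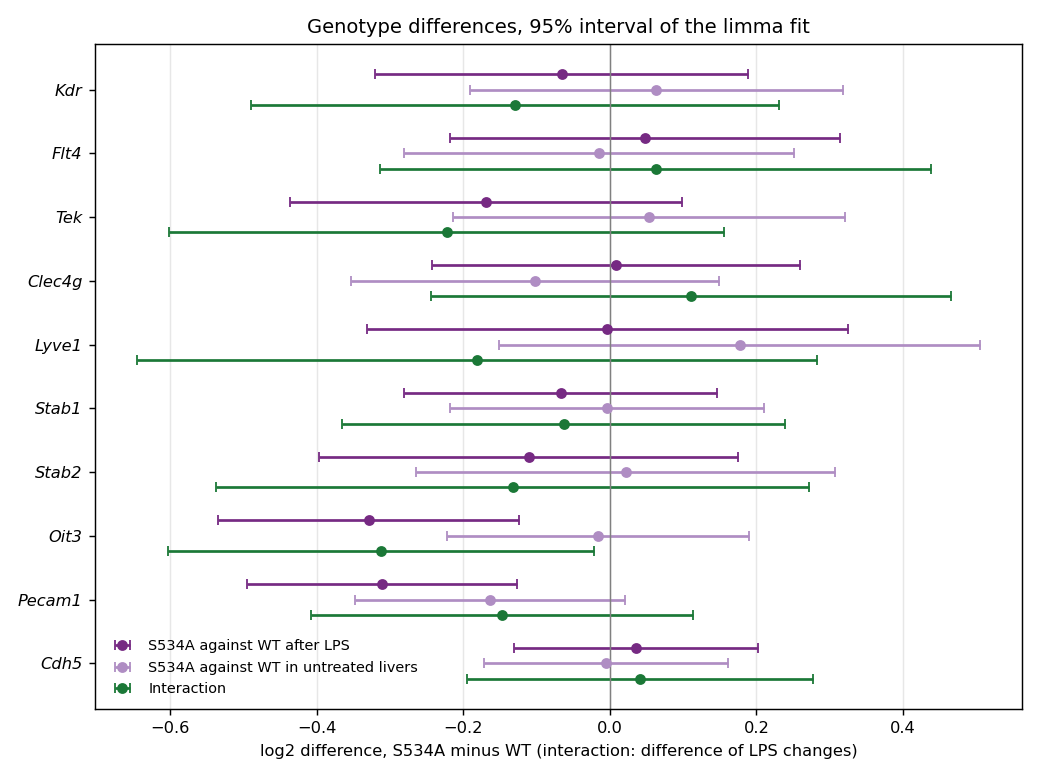
Log2 differences between S534A and WT (horizontal axis) of the 10 genes with 95% intervals of the limma fit, after LPS, in untreated livers, and for the interaction. Intervals exclude 0 for Oit3 and Pecam1 after LPS and for the Oit3 interaction, and none of these passed after adjustment over all genes.

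Arrays that were high for one member tended to be high for others within their group. Deviations from the group means were positively correlated for 45 of 45 pairs of members, with a median Pearson r of 0.49 over 16 arrays, the highest for Kdr with Oit3 (0.827) and the lowest for Flt4 with Lyve1 (0.0686). Points of such a pair share an array and its scaling. With all other genes tested, a member's deviations had a median r between 0.02 and 0.08. Stab2 followed the other members most closely (median r 0.695) and Flt4 least (0.217). Lyve1 and Cdh5, which did not fall after LPS, were positively related to the 8 others within groups.

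Single arrays stood out. In LPS-treated WT array 2 all 10 genes lay above their group mean, by 0.25 on average, and 9 of them were the highest of the group. LPS-treated S534A array 4 also had all 10 above the mean, by 0.17 on average, again with 9 the highest, and untreated S534A array 4 had all 10 above it by 0.07, with 5 the highest. On the low side LPS-treated S534A array 2 (-0.12 on average, 7 genes the lowest), untreated S534A array 2 (-0.11, 7 the lowest) and untreated WT array 2 (-0.10, 6 the lowest) had the largest shifts. In LPS-treated WT array 2 the neutrophil and monocyte marker list stood 0.47 above its group mean and the Kupffer cell list 0.13. A list of other sinusoidal genes stood 0.24 above there, and a list of general endothelial genes 0.15. In LPS-treated S534A array 4 the neutrophil and monocyte list stood 0.06 above its group mean and the Kupffer cell list 0.01. The same 2 endothelial lists stood 0.15 and 0.12 above there. In LPS-treated S534A array 1 the neutrophil and monocyte list stood 0.23 above its group mean, while the 10 genes averaged -0.09. The 2 endothelial lists stood at -0.05 and -0.07 in that array. These lists did not follow the 10 genes everywhere. In untreated S534A array 4, where the 10 genes averaged 0.07, the lists stood at -0.005 and -0.02. In untreated S534A array 1 the 10 genes averaged -0.04, and the lists stood at 0.07 and -0.03. The part of leukocytes in these deviations was not tested. Leaving out LPS-treated S534A array 4 kept the calls of all members. Leaving out LPS-treated WT array 2 kept all except that of Cdh5 in WT, given above.

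**Figure D4:**
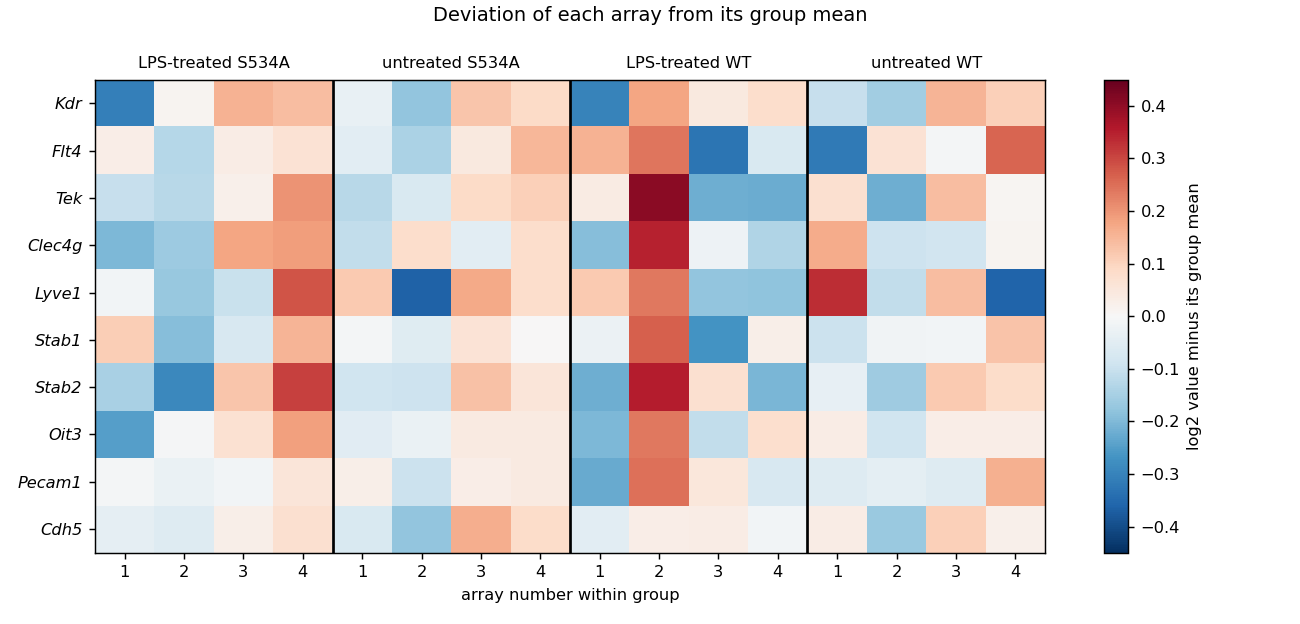
Deviation of each array (columns, numbered within the 4 groups) from its group mean for the 10 genes (rows), red above and blue below, in log2 units. LPS-treated WT array 2, LPS-treated S534A array 4 and untreated S534A array 4 are above the mean for all 10 genes.

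Over the 16 arrays, among 14702 named genes, the nearest to Tek was Emcn, an endothelial sialomucin (r = 0.999). The nearest to Stab1 was the secreted DNase gene Dnase1l3 (0.983), and to Oit3 the water channel gene Aqp1 (0.996). Nearest to Kdr was Lims2 (0.996), to Clec4g the succinate receptor gene Sucnr1 (0.994), to Flt4 the kinase gene Csk (0.991), to Stab2 Slc35d2 (0.986) and to Pecam1 Arrb2 (0.983). Lyve1 was closest to Gca, which encodes grancalcin, a calcium-binding protein of granulocytes (0.983), and Cdh5 to the interleukin 4 receptor gene Il4ra (0.936). These correlations are descriptions of 16 arrays that share the split by LPS. Over deviations from the group means Tek was again nearest to Emcn (0.931), while the nearest gene changed for the other 9 members. It was Apoc4 for Kdr (0.864), Eps15l1 for Flt4 (0.918), Mcph1 for Clec4g (0.884), Psmd10 for Lyve1 (0.860) and Pltp for Stab1 (0.969). For Stab2 it was Hax1 (0.857), for Oit3 Spats2l (0.952), for Pecam1 Zfp277 (0.913) and for Cdh5 Kcne3 (0.915), and none of these 9 genes is in the endothelial lists used here. Each of these values is the largest among 14702 genes. How large a value chance alone would give was not tested.

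Of 12 other VEGF and angiopoietin pathway genes tested, 5 fell and 3 rose after LPS in S534A, and 5 fell and 4 rose in WT. The median change of the 12 was -0.01 in S534A and -0.09 in WT, against -0.03 and -0.05 over all genes. Ptprb, the phosphatase that counteracts Tek, changed by -2.60 ± 0.13 in S534A and -2.37 ± 0.13 in WT. Tie1, the co-receptor of Tek, changed by -0.59 ± 0.07 and -0.62 ± 0.07, and Angpt2, a context-dependent antagonist of Tek, by 0.60 ± 0.12 and 0.58 ± 0.12. Vegfa, the ligand of Kdr, stood at -0.03 ± 0.08 in S534A (limma adjusted p = 0.788) and -0.09 ± 0.08 in WT (adjusted p = 0.407). The Flt4 ligand gene Vegfd changed by -0.38 ± 0.08 and -0.48 ± 0.08, while Vegfc, the other Flt4 ligand, stood at 0.12 ± 0.10 and 0.16 ± 0.10 and did not pass. Flt1, a decoy receptor for the ligand of Kdr, changed by -0.40 ± 0.10 and -0.35 ± 0.10, calls lost after a second quantile normalization. Besides Angpt2, Nrp1 (0.56 ± 0.15 and 0.64 ± 0.15) and Nrp2 (0.43 ± 0.17 and 0.59 ± 0.17) rose in both genotypes. Foxo1 passed as higher in WT (0.32 ± 0.10). The Nrp2 call in S534A and the Foxo1 call in WT were lost with arrays centred on their median.

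Further sinusoidal genes fell in 12 of 12 cases in both genotypes, with a median of -1.68 in S534A and -1.33 in WT. They included the mannose receptor Mrc1 (-1.90 ± 0.11 and -1.56 ± 0.11), the Fc receptor Fcgr2b (-1.97 ± 0.13 and -1.85 ± 0.13), Ehd3 (-2.12 ± 0.14 and -1.95 ± 0.14) and Adam23 (-1.87 ± 0.11 and -1.52 ± 0.11). The smallest change was that of Cd209b (-0.20 ± 0.07 and -0.21 ± 0.07), whose calls were lost with arrays centred on the median of the tested genes. Leaving out 1 array gave 11 to 12 calls in S534A. Some genes of this list, among them Mrc1, Fcgr2b, Clec1b and Fcna, are also expressed by Kupffer cells. The part of Kupffer cells in these falls was not tested. Of 15 genes shared by endothelium in general 9 fell and 5 rose in S534A, and 9 fell and 3 rose in WT, with medians of -0.98 and -0.77. Adgrl4 (-2.60 ± 0.12 and -2.16 ± 0.12) and Emcn (-2.12 ± 0.11 and -1.91 ± 0.11) led the falls. The genes that rose in both genotypes were Cd93 (1.01 ± 0.13 and 1.14 ± 0.13), Ecscr (0.47 ± 0.09 and 0.50 ± 0.09) and Icam2 (0.33 ± 0.08 and 0.20 ± 0.08). Myeloid cells also carry Cd93, and leukocytes also carry Icam2. The part of leukocytes in these rises was not tested. Robo4 and S1pr1 rose in S534A (0.30 ± 0.10 and 0.38 ± 0.09) and stood at 0.23 ± 0.10 and 0.05 ± 0.09 in WT. Their LPS changes did not differ between genotypes at the threshold. The interaction was 0.07 ± 0.15 for Robo4 and 0.33 ± 0.13 for S1pr1 (limma adjusted p = 0.978 and 0.951). The calls of Icam2 in WT and Robo4 in S534A were lost with arrays centred on their median.

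Other endothelial lists were mixed. Of 8 vascular and capillary genes 5 fell in S534A and 6 in WT, and 0 passed in the other direction. Of 12 angiocrine factors 8 fell in each genotype, with 2 higher in S534A and 1 in WT, and of 20 endothelial transcription factors 13 fell and 4 rose in S534A, and 12 fell and 3 rose in WT. Endothelial activation genes rose in 6 of 9 cases in each genotype, among them Icam1 (2.85 ± 0.09 and 2.65 ± 0.09) and Sele (1.85 ± 0.13 and 1.60 ± 0.13), with 1 lower in S534A and 2 in WT. Of 6 hyaluronan genes tested beside Stab2 and Lyve1, 2 rose and 2 fell in each genotype, and Cd44, a hyaluronan receptor shared with leukocytes, rose (0.94 ± 0.11 and 1.17 ± 0.11).

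**Figure D5:**
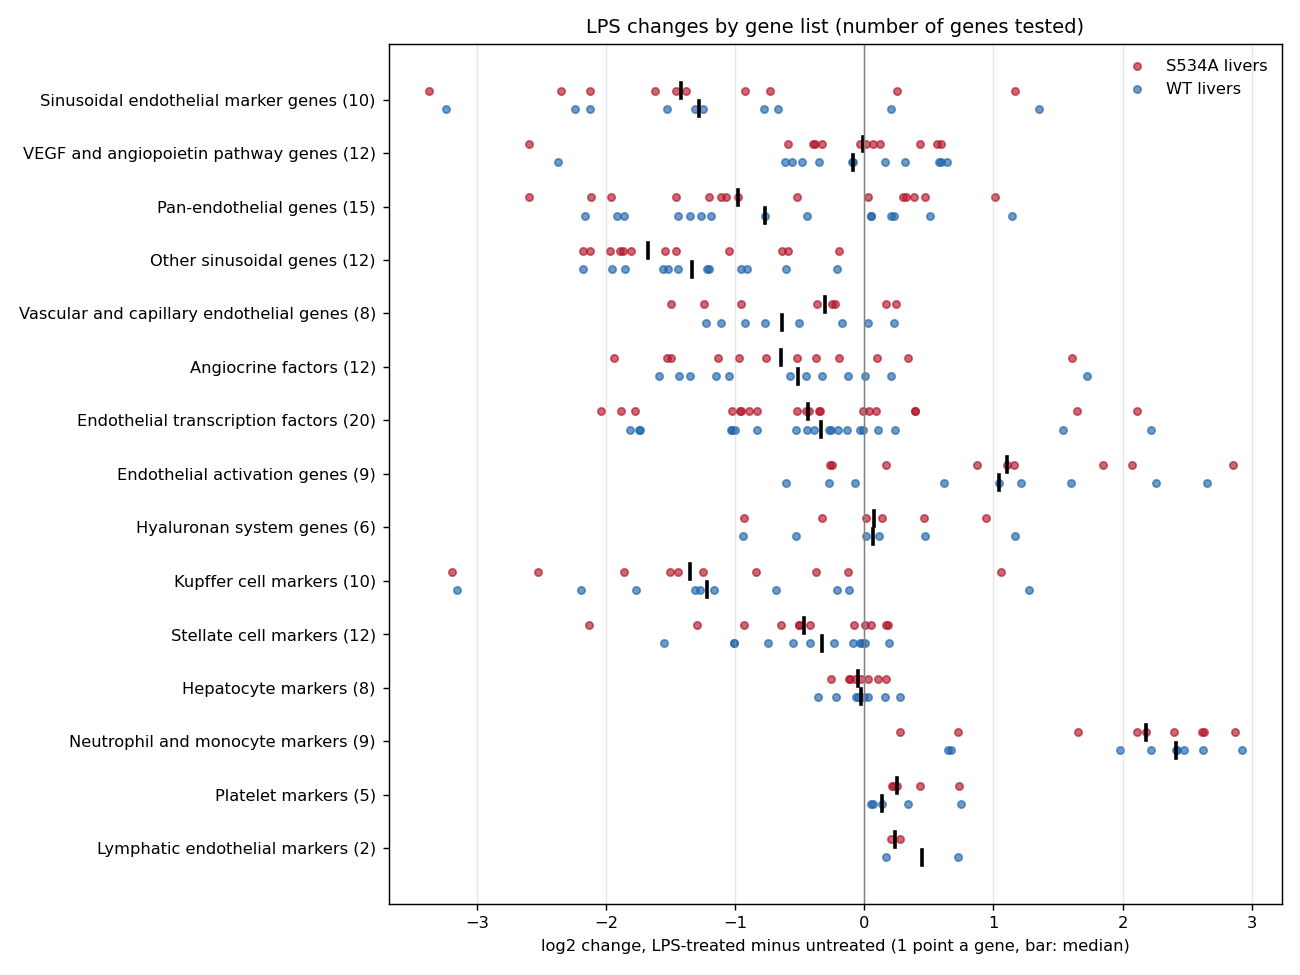
Log2 change after LPS (horizontal axis) of every tested gene in each list, S534A livers in red above WT livers in blue, with the median as a black bar. The medians are -1.42 and -1.28 for the 10 marker genes and -1.68 and -1.33 for the 12 further sinusoidal genes. They are -1.35 and -1.22 for Kupffer cell markers, and 2.18 and 2.42 for neutrophil and monocyte markers.

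Markers of other cell types were measured in the same arrays. Neutrophil and monocyte markers rose in 8 of 9 cases in S534A and 9 of 9 in WT. Their mean log2 level per array lay between 7.74 and 8.17 in LPS-treated S534A arrays, against 5.92 to 6.04 in untreated ones, and between 7.75 and 8.46 in LPS-treated WT arrays, against 5.90 to 5.99. Of 5 platelet markers 4 rose in S534A and 2 in WT, and of the 2 genes listed as lymphatic markers 0 passed in S534A and 1, Prox1, in WT. Prox1 is also expressed by hepatocytes, so in whole liver it does not mark lymphatic endothelium. Their part in the changes of Lyve1 and Pecam1 was not tested.

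Kupffer cell markers fell in 7 of 10 cases and rose in 1 in each genotype. Their median change was -1.35 in S534A and -1.22 in WT, near the -1.42 and -1.28 of the 10 endothelial markers. A fall of this size was therefore not particular to the endothelial lists. The mean level of the list was 7.98 to 8.27 in LPS-treated S534A arrays, against 9.13 to 9.54 in untreated ones, and 8.17 to 8.49 in LPS-treated WT arrays, against 9.27 to 9.67. Their part in the fall of Stab1, which macrophages share, was not tested. Stellate cell markers fell in 7 of 12 cases in S534A and 6 of 12 in WT. Of 8 hepatocyte markers 1 fell and 0 rose in S534A, and 2 fell and 2 rose in WT, the largest change being that of Asgr1 (-0.26 ± 0.07 and -0.36 ± 0.07). The hepatocyte calls changed with the scaling: centred on the array median, 4 fell and 0 rose in each genotype, and centred on the median of the tested genes, 0 fell and 3 rose in S534A, and 1 fell and 3 rose in WT.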

How the data were processed

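Whole-liver RNA of 16 samples, 4 in each of 4 groups named by the sample titles, was isolated on columns, and a whole-transcript kit was used for amplification and biotin labelling, per the labels' protocols. The authors' deposited log2 values were made with RMA (version not given), per the submitters' processing notes. They ran from 3.49 to 14.54 over 35556 probe sets. Precision is limited by having 4 arrays a group.

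Probe sets above the 30th percentile of their array in at least 4 arrays were kept (26037), those with 1 gene symbol (21789 of all) were used, and the probe set of highest mean represented a gene, which left 15908 genes. Of these symbols 21698 matched RefSeq (GRCm38.p6) by gene identifier and 0 changed. Group means were fitted with limma 3.58.1 in R 4.3.3 over all 16 arrays (12 residual degrees of freedom), with 5 contrasts, two-sided tests and Benjamini-Hochberg adjustment over all genes tested at a threshold of 0.05. Intervals are 95% intervals of that fit, which was tested on simulated data. Figures used Python 3.11.15 and matplotlib 3.10.9.

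The 10 members, the 14 other lists and the alternatives were chosen with earlier results of these data known. Named genes were all members in each comparison, those of the 4 lowest p in each list after LPS in WT, those of list directions with 5 or fewer calls, and the nearest gene to each member; the text gives a selection. Vegfa, Vegfc and Cd209b were added for their roles or after their values were seen. Same-numbered arrays of different groups deviated together by more than r = 0.1 in 9 of 24 pairs, with r from -0.49 to 0.59. In the 72 pairs of different number r ran from -0.59 to 0.57. The replicate numbers were not taken as pairs, and these values do not decide whether the numbers mark pairs.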

Additional observations from a re-analysis of the deposited data

Results flagged for a closer look

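Of 40 sets of 4 arrays (10 genes in 4 groups), 3 held an array whose distance to its nearest neighbour was most of the range of the group, which chance gives in about 1 of 20 sets. Oit3 was lowest in untreated WT array 2, at 9.65, with the next array at 9.77. Pecam1 was lowest in untreated S534A array 2, at 7.98, with the next at 8.10, and highest in untreated WT array 4, at 8.40, with the next at 8.19. Both Pecam1 arrays lie on the outer side of the gap between the untreated genotypes. Over the 31 alternatives the S534A minus WT difference of Pecam1 in untreated livers lay between -0.23 and -0.11, with limma adjusted p from 0.347 to 0.940.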

How the results depend on the processing

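Across 31 alternatives (16 of them leaving out 1 array), 1524 of 1540 values of single members kept their side of the threshold. Direction was compared only where a value passed. Values that did not pass could change sign, as the S534A minus WT difference of Kdr after LPS did (-0.17 to 0.06). The 16 others all concern Cdh5 after LPS, 4 in S534A and 12 in WT, and no call turned. The number of members lower after LPS was 8 in both genotypes throughout, and no member passed in a genotype comparison or the interaction. The number higher became 1 in place of 2 in both genotypes with arrays centred on their median, at an adjusted p under 0.01 and with a 1.5-fold minimum, and in WT with array quality weights or only the groups compared. Leaving out 1 array gave 1 to 2 higher in each genotype. The replicate block kept all 10 calls after LPS (Cdh5 adjusted p = 0.00997 in S534A and 0.0269 in WT, by limma) and changed no other call of a member; 6 of 16 arrays resembled best an array of their own number.

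Scaling set the split of all genes. The share of calls after LPS that were higher was 31.3% in S534A and 33.3% in WT, and became 21.5% and 22.1% with arrays centred on their median and 57.7% and 51.9% when centred on the median of the tested genes, an alternative chosen after seeing the data.

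Counts of changed genes in other lists moved beyond 1.5 times as follows. With arrays centred on their median hepatocyte markers gave 4 and platelet markers 2 in S534A. Centred on the median of tested genes, or after a second quantile normalization, vascular genes and hepatocyte markers each gave 3 in S534A. The hepatocyte calls went opposite ways: 3 higher and 0 lower with that centring, and 0 higher and 3 lower after the second quantile normalization. Array quality weights gave 4 hepatocyte and 1 lymphatic markers in S534A, trended and robust eBayes 3 hepatocyte markers there, and the clock score as covariate 2. In WT, only the groups compared gave 2 hepatocyte markers, an adjusted p under 0.01 gave 1 hepatocyte and 1 platelet marker, and leaving out the 3 untreated arrays with shifted clock genes gave 2 hepatocyte and 0 lymphatic markers. A 1.5-fold minimum gave in S534A 3 VEGF and angiopoietin, 9 pan-endothelial, 3 vascular, 10 transcription factor, 2 hyaluronan, 4 stellate, 0 hepatocyte and 1 platelet genes, and in WT 4 VEGF and angiopoietin, 9 transcription factor, 2 hyaluronan, 0 hepatocyte and 1 platelet genes. Threshold changes lower counts by construction, and for the other changes the cause was not tested.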
